A study of Schizosaccharomyces pombe with 12 samples.

Results

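The comparison described here sets the fission yeast *thc1*Δ strain against a wild type that was not its parent, with the 6 libraries chosen by their labels, of 12 in the series, and all 7004 gene rows taken in. After a filter on low counts 6235 genes were tested. RNA was sequenced from 3 cultures of each strain of *Schizosaccharomyces pombe*, each of 250 ml, grown at 32 °C in rich medium (YES) to log phase. The *thc1*Δ strain is h- and had the *thc1* open reading frame replaced by *his3*+, on a background of ade6-M216, leu1-32, ura4-D18 and his3-D1. The strain it is set against is the h+ wild type, which shares leu1-32, ura4-D18 and his3-D1, carries ade6-M210 or ade6-M216, and was sequenced as the control of another deletion, *bmc1*Δ. A second wild type, h- and the parent of *thc1*Δ, is used where a gene changed against one control and not against the other. The cultures of a strain share 1 genotype, so p-values measure only the spread between its cultures. Mating type, the *his3*+ insertion, strain descent and possibly the *ade6* allele differ between *thc1*Δ and the h+ wild type along with *thc1*, and their effects cannot be told apart from that of the deletion in these 6 libraries.

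Telomerase adds repeats to chromosome ends by copying a template in its RNA subunit, called TER1 in fission yeast. The TER1 precursor is bound by a ring of Sm proteins, which brings in the methyltransferase Tgs1 to methylate its cap further, and it is cut by the spliceosome. A ring of Lsm proteins then takes the place of the Sm ring and protects the new end. Trt1 is the reverse transcriptase, Est1 a regulatory subunit, and Pof8, Bmc1 and Thc1 are proteins that bind or help to assemble the RNA. A fission yeast cell is of M type (h-) or P type (h+). M cells secrete M-factor and P cells secrete P-factor, and each responds to the pheromone of the other type. On glucose, genes for the use of other carbon sources and for high-affinity hexose uptake are kept low.

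The TER1 sequence around its Sm motif is shown because TER1 is the telomerase RNA and was lower in *thc1*Δ. The stretch lies at chrI:3084794-3084853 on the minus strand of ASM294v3 (RefSeq), with the motif in capitals. The annotated first exon, of 1207 nt, ends within the motif, just before its last base. The 9 letters ATTTTTTGG occur 1 time in the TER1 gene, and they occur on either strand in 0.281% of stretches of 60 nt of the 3 chromosomes. Such a match is a description of letters only.
ter1: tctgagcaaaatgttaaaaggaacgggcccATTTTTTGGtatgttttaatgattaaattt

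The coding sequences of the 3 M-factor genes are shown because *mfm2* was called higher and *mfm3* lower in *thc1*Δ although all 3 encode the same pheromone. Capitals mark the 9 codons of the mature peptide. From RefSeq ASM294v3, *mfm2* lies at chrI:2913008-2913184 (minus strand), *mfm1* at chrI:4917099-4917298 (plus strand) and *mfm3* at chrII:700364-700556 (plus strand), each with an intron that the printed sequence leaves out.
mfm2: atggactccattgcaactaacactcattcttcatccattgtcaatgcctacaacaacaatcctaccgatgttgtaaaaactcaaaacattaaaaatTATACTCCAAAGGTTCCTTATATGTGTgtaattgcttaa
mfm1: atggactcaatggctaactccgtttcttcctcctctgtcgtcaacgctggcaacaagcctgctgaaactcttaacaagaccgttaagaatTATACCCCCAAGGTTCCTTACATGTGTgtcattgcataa
mfm3: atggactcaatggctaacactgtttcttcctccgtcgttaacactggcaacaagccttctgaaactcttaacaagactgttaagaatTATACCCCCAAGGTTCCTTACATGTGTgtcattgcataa
Over the coding sequence *mfm2* matched *mfm1* at 68.1% and *mfm3* at 69.7% of aligned positions, with no shared run longer than 11 nt. The genes *mfm1* and *mfm3* matched at 93.0%, with a longest shared run of 48 nt. The reads of the paper were longer than this run before trimming. Whether any reads were placed on the wrong one of these 2 genes was not tested.

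Library totals lay between 34843962 and 40328959 counts over the 6 libraries. Between cultures of a strain, chi-square per degree of freedom was 68.9 and 65.5 for *thc1*Δ replicate 1 against the other 2, against 20.8 between those 2, and 13.7 to 38.5 in the h+ wild type. In the h- wild type it was 2.95 to 6.99. Every pair differed by more than the sampling noise. Counts of genes passing the adjusted p against the 2 wild types therefore rest on unlike spreads between cultures. Levels are in CPM, the counts of a gene relative to its TMM-scaled library total, a unit that compares a gene between libraries but not genes of different length. Fold changes are log2 of *thc1*Δ over the h+ wild type, with a standard error (SE). A gene is called when the fold change is at least 2 and the Benjamini-Hochberg adjusted p of edgeR's quasi-likelihood test over all genes tested is below 0.05. The counting step is not known to use strand, so a gene and an overlapping gene on the other strand may share reads. How far they do was not tested. By ASM294v3, SPAC11D3.18c lies wholly within SPNCRNA.611 on the other strand. In the h+ wild type SPAC11D3.18c had 875, 884 and 829 counts, against 68, 89 and 101 for SPNCRNA.611. For this pair most reads of SPAC11D3.18c were thus not counted for both.

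The deleted gene gave lower but not absent reads. The *thc1* row (SPCC18B5.09c, chrIII:737089-737870, 1 exon of 782 nt of which 351 nt are coding) had 21, 20.8 and 19.7 CPM in *thc1*Δ, against 53.5, 48.0 and 49.8 CPM in the h+ wild type, a log2 fold change of -1.30 (SE 0.0585, adjusted p = 1.52e-05). The row also covers transcribed sequence outside the open reading frame that *his3*+ replaced, and the counts do not separate the parts. The inserted marker was seen in the *his3* row, the gene of a histidine synthesis enzyme, with 49.5, 41.5 and 43.7 CPM in *thc1*Δ against 20.4, 19.7 and 18.8 CPM in the h+ wild type (log2 fold change 1.19, SE 0.0761, adjusted p = 0.000165). For both genes the groups did not overlap, and the labels of all 6 libraries match these levels.

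TER1 was the telomerase component that changed. The *ter1* row (SPNCRNA.214, chrI:3084610-3086022) had 58.0, 50.2 and 55.5 CPM in *thc1*Δ, against 159, 147 and 148 CPM in the h+ wild type. The fitted level in *thc1*Δ was 35.9% of that in the h+ wild type (log2 fold change -1.48, SE 0.0632, adjusted p = 1.52e-05), and the groups lay far apart. An exact permutation test, two-sided, of the 3 CPM values against 3 gave p = 0.1, the smallest this design allows. The h- wild type had 155 ± 4.21 CPM (SD, n = 3), and between the wild types TER1 differed by -0.03 (adjusted p = 0.562), so its level in *thc1*Δ was low against either one. In bulk RNA a lower level in every cell and fewer cells with the RNA cannot be told apart.

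**Figure D1:**
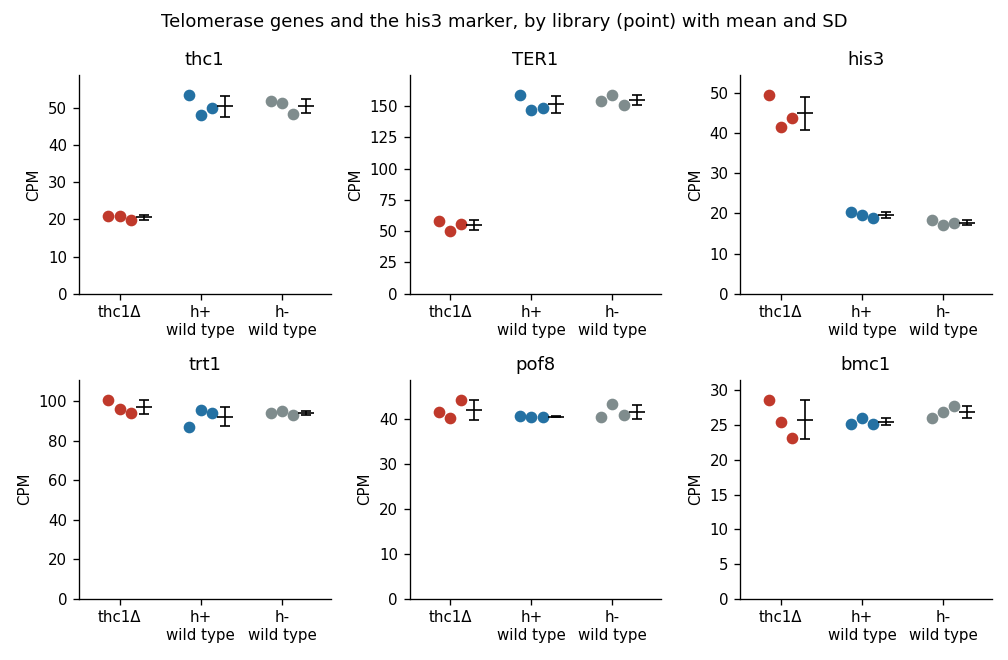
CPM of each library (points) with mean and SD in *thc1*Δ, the h+ wild type and the h- wild type (n = 3 each), for *thc1*, TER1, the *his3* marker and the telomerase genes *trt1*, *pof8* and *bmc1*. Every *thc1*Δ library lies below all wild type libraries for *thc1* and TER1 and above them for *his3*, while for the other 3 genes the groups overlap.

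The protein partners of TER1 were not called. The gene of the reverse transcriptase, *trt1*, had 101, 96.2 and 94.4 CPM in *thc1*Δ and 87.1, 95.8 and 94.1 CPM in the h+ wild type (log2 fold change 0.07, SE 0.052, adjusted p = 0.403). Fold changes were 0.01 for *est1*, 0.04 for *pof8* (SE 0.0497), 0.01 for *bmc1* (SE 0.0816), 0.03 for *tgs1* and 0.00 for *lsm4*, with adjusted p from 0.578 to 0.982. The largest was 0.15 for *smb1*, an Sm ring subunit, at adjusted p = 0.127. Those near 0 took either sign under other scalings or without 1 library. Of the 9 telomerase genes 2 were called, the deleted *thc1* itself and TER1, both lower, beside 0.994% of all genes tested. The median log2 fold change of the 9 was 0.01. Of 9 genes of telomere capping proteins none was called and none passed the adjusted p alone against the h+ wild type. The most different, *ten1* of the single-strand end-binding complex, stood at -0.67 (adjusted p = 0.0551). Against the h- wild type *ten1* was called lower (-1.34, adjusted p = 0.00171). The h+ over the h- wild type stood at -0.67 for *ten1* (adjusted p = 0.00619).

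Across the genome, 28 genes (0.449% of the 6235 tested) were called higher and 62 (0.994%) lower in *thc1*Δ than in the h+ wild type. With the adjusted p alone, 329 were higher (5.28%) and 515 lower (8.26%), and 2014 genes had an unadjusted p below 0.05. The median log2 fold change of all genes was -0.007. In 89 of the 90 called genes the 3 *thc1*Δ libraries lay wholly on one side of the 3 h+ libraries, as they did in 39.4% of all genes tested. The exception, SPNCRNA.935, had 12, 8.50 and 8.38 CPM in *thc1*Δ against 10.8, 40.5 and 43.4 CPM in the h+ wild type, with h+ replicate 1 among the *thc1*Δ values. Non-coding RNAs made up 17.9% of genes tested, 64.3% of those higher (18) and 37.1% of those lower (23). Of the 90 genes, 47 were called whichever 1 of the 6 libraries was left out.

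**Figure D2:**
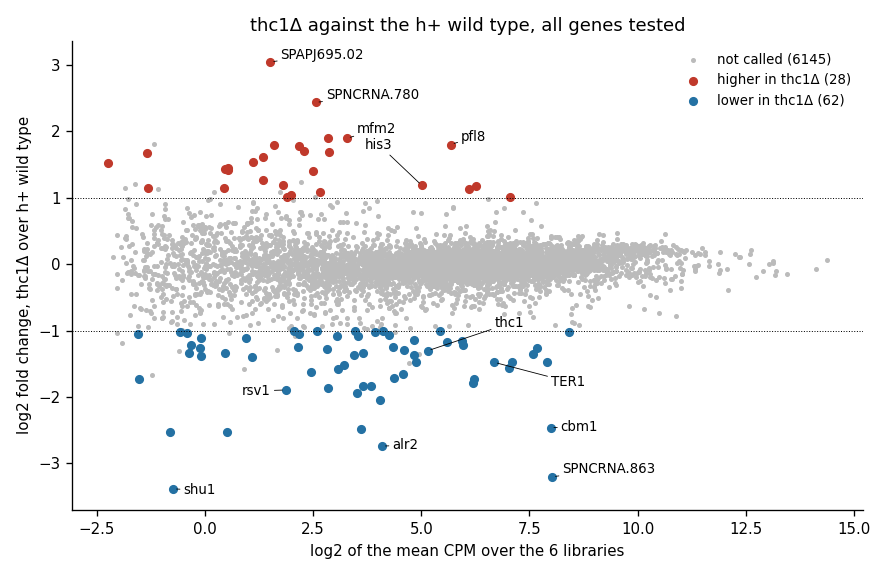
Log2 fold change of *thc1*Δ over the h+ wild type against the log2 of the mean CPM of the 6 libraries, 1 point per gene tested, with dotted lines at a fold change of 2. The 28 genes called higher (red) reach 3.05 at SPAPJ695.02, and the 62 called lower (blue) reach -3.39 at *shu1*, a gene of low level.

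The 8 largest falls were in 4 protein-coding genes, 3 non-coding RNAs and 1 pseudogene. The gene with the largest fall, *shu1*, encodes a cell-surface protein for heme uptake. It had 3, 4 and 4 counts in *thc1*Δ against 51, 36 and 36 counts in the h+ wild type, a summed level of 9.37% of the h+ wild type with an exact 95% interval of 4.56% to 17.4% for counting error only. Its fitted log2 fold change was -3.39 (adjusted p = 0.00113). In the h- wild type it averaged 0.134 ± 0.049 CPM (SD, n = 3), against 0.0867 to 0.112 CPM in *thc1*Δ and 0.895 to 1.44 CPM in the h+ wild type, and it fell below the filter in the fit against the h- parent. The high level was that of the h+ strain.

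The non-coding RNA SPNCRNA.863 had 57.8, 50.1 and 45.9 CPM in *thc1*Δ, against 762, 438 and 210 CPM in the h+ wild type (log2 fold change -3.20, SE 0.412, adjusted p = 0.0033). The *cbm1* gene, annotated with a cellulose-binding domain, had 79.1, 85.1 and 70.8 CPM in *thc1*Δ against 592, 450 and 248 CPM in the h+ wild type (-2.46, SE 0.277, adjusted p = 0.00172). Groups did not overlap for either, and the h+ cultures spread widely, with replicate 1 the highest and replicate 3 the lowest for both.

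The alanine racemase gene *alr2* had 6.39, 3.22 and 3.84 CPM in *thc1*Δ against 7.87, 37.2 and 44.1 CPM in the h+ wild type (log2 fold change -2.74, SE 0.585, adjusted p = 0.0226). Here h+ replicate 1 lay close to the *thc1*Δ cultures. The *alr2* call was lost without *thc1*Δ replicate 2 (adjusted p = 0.0802) or 3 (0.0896) or h+ replicate 2 (0.0627) or 3 (0.0573), at log2 fold changes from -2.64 to -2.34. The other 4 of the 8 largest falls were the non-coding RNAs SPNCRNA.1255 (-2.53) and SPNCRNA.1344 (-2.49), the pseudogene SPBCPT2R1.07c (-2.53) and the dehydrogenase gene SPCC1739.08c (-2.05). The SPBCPT2R1.07c call rests on 18 counts in *thc1*Δ against 110 in the h+ wild type and was lost without *thc1*Δ replicate 3 (-2.29, adjusted p = 0.0633).

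The largest rise was in SPAPJ695.02, which encodes a protein of no known role. It had 5.00, 4.05 and 6.23 CPM in *thc1*Δ, against 0.423, 0.671 and 0.730 CPM in the h+ wild type (log2 fold change 3.05, SE 0.239, adjusted p = 0.000462). The groups were separate by a wide margin, and the h- wild type stood between them at 3.06 ± 0.734 CPM (SD, n = 3). The flocculin gene *pfl8*, of a family of cell-surface proteins by which yeast cells adhere to each other, had 112, 61.9 and 66.4 CPM in *thc1*Δ against 22, 24.3 and 22.2 CPM in the h+ wild type (1.80, SE 0.213, adjusted p = 0.00212). The *pfl8* level in *thc1*Δ replicate 1 was well above the other 2, and all 3 exceeded every h+ library. The other 6 of the 8 largest rises were *mfm2*, *nrg1*, SPNCRNA.779, SPNCRNA.780, SPNCRNA.611 and SPNCRNA.613, whose values follow.

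Of the M-factor genes, *mfm2* was higher and *mfm3* lower in *thc1*Δ. In *mfm2*, the M-factor gene with the highest counts of the 3, *thc1*Δ had 13.9, 15.2 and 17.2 CPM against 2.06, 8.63 and 1.54 CPM in the h+ wild type (log2 fold change 1.90, SE 0.526, adjusted p = 0.0499). The groups did not overlap, though h+ replicate 2 stood well above the other 2 h+ cultures. The *mfm2* call was lost without *thc1*Δ replicate 2 (adjusted p = 0.108) or 3 (0.132) or h+ replicate 1 (0.132) or 3 (0.0919), at log2 fold changes from 1.52 to 1.92. The h- wild type had 22.1 ± 1.26 CPM (SD, n = 3), above *thc1*Δ by a log2 fold change of -0.52 that did not reach the fold limit.

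A second M-factor gene, *mfm3*, was lower, with 0.463, 0.643 and 0.672 CPM in *thc1*Δ against 1.47, 1.32 and 1.05 CPM in the h+ wild type (log2 fold change -1.11, SE 0.220, adjusted p = 0.0181). It was also lower against the h- wild type (-1.16, adjusted p = 0.0071), and the 2 wild types differed by -0.05. The *mfm3* call was lost without *thc1*Δ replicate 1 (-0.96, adjusted p = 0.0309), without replicate 2 (0.0524) or 3 (0.0534), or without h+ replicate 1 (0.0503) or 2 (0.0567). The third, *mfm1*, had 8 to 15 counts a library in *thc1*Δ and 8 to 18 in the h+ wild type, with a log2 fold change of -0.10 (SE 0.397, adjusted p = 0.885) that turned positive without some libraries.

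The other M-cell and P-cell genes stayed within 0.32 on the log2 scale. Of the 8 M-cell genes 1 was called higher and 1 lower, beside 0.449% and 0.994% of all genes tested. Besides *mfm2*, *mam4*, the gene of the enzyme that methylates M-factor, passed the adjusted p alone (0.22, adjusted p = 0.0232). The receptor gene *mam2* stood at -0.07, and *mam1*, the exporter of M-factor, at 0.06, while *mam3* (-0.29) and *sxa2* (-0.13) also missed the threshold (adjusted p = 0.121 and 0.206). Of the 5 P-cell genes none was called. The M-factor receptor gene *map3* had 16.6, 15.2 and 14.9 CPM in *thc1*Δ against 20.1, 18.5 and 19.4 CPM in the h+ wild type (-0.32, adjusted p = 0.0267). The P-factor gene *map2* stood at -0.08 (adjusted p = 0.794), and *map1*, *map4* and *sxa1* at 0.16, -0.22 and 0.05 (adjusted p = 0.565, 0.128 and 0.55). Of these genes *mfm2* at the fold limit, and *mam4* and *map3* by the adjusted p alone, differed in the direction of the labelled mating types, while *mfm3* differed in the other. The remaining genes of both lists did not pass, and their fold changes had mixed signs. Against the h- wild type, which has the mating type of *thc1*Δ, *mam4* stood at -0.22 (adjusted p = 0.00494). The largest adjusted p with 1 library left out was 0.0806 for *mam4* and 0.0947 for *map3*, both without *thc1*Δ replicate 3.

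Genes of mating and meiotic entry moved by less than the fold limit against the h+ wild type. None of 16 was called, 1 was higher and 3 lower by the adjusted p alone, beside 5.28% and 8.26% of all genes tested. The meiosis regulator gene *mei2* had 15.1, 13.4 and 19.4 CPM in *thc1*Δ against 10.6, 9.35 and 7.30 CPM in the h+ wild type (0.81, adjusted p = 0.0219). The lower ones were *ste7* (-0.92, adjusted p = 0.0033), *mei3* (-0.70, adjusted p = 0.0376) and *pat1* (-0.67, adjusted p = 0.0154), the last a kinase that holds back meiosis. Against the h- wild type, with 33.9 CPM on average, *mei2* was called lower in *thc1*Δ (-1.09, adjusted p = 0.000913). There *ste7* and *pat1* stood above 0 (0.39 and 0.18, adjusted p = 0.0194 and 0.0305), and *mei3* at -0.17 (adjusted p = 0.606). These 4 were chosen after their values were seen, as were all genes named below the fold limit in the lists that follow.

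Most of what was called against the h+ wild type was not called against the h- parent. Against the h- wild type, the same test called 47 genes higher (0.754%) and 28 lower (0.449%). Of the 90 calls here, 20 were called there in the same direction (8 higher and 12 lower), 5 in the opposite direction, 62 were tested and not called, and 3 were not tested. The 2 fits share the 3 *thc1*Δ libraries, so their counts are not independent. Among the 62, the fold change against the h- parent was under 0.5 (log2, either sign) in 35. In 32 of the 90 the *thc1*Δ mean lay between the means of the 2 wild types.

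The difference between the 2 results is the difference between the wild types, and it was tested as such. The h+ and the h- wild type differed at adjusted p below 0.05 in 61 of the 69 testable genes among the 70 calls that were not shared, against 41.4% of all genes tested between them, and 50 of these were called there, against 2.81%. Of the 20 shared calls, 9 of 19 testable differed between the wild types. Since these genes were selected for a difference from one wild type and not from the other, a high share is built into the choice.

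Among the calls not shared, with at least 5 CPM on average, the clearest was SPAC11D3.15, the gene of a 5-oxoprolinase of the glutathione cycle. It had 113, 105 and 103 CPM in *thc1*Δ, against 46.6, 48.1 and 46.0 CPM in the h+ wild type (log2 fold change 1.18, SE 0.05, adjusted p = 1.52e-05). The h- wild type had 113 ± 1.72 CPM (SD, n = 3), so *thc1*Δ lay near its parent (-0.08, adjusted p = 0.19) and the h+ strain was the lower one (-1.27 for h+ over h- wild type, adjusted p = 1.88e-07). The non-coding RNA SPNCRNA.679 gave the reverse picture, with 3.61, 5.40 and 5.21 CPM in *thc1*Δ against 21.9, 16.8 and 15.9 CPM in the h+ wild type (-1.95, SE 0.178, adjusted p = 0.000702). The h- wild type had 4.14 ± 0.597 CPM (SD, n = 3) of SPNCRNA.679, and *thc1*Δ did not pass against it (0.19, adjusted p = 0.468).

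There were 5 genes called in opposite directions against the 2 wild types, with *thc1*Δ between them. The zinc finger gene *rsv1*, needed for survival in stationary phase, had 0.694, 1.51 and 2.39 CPM in *thc1*Δ, against 6.51, 5.10 and 5.57 CPM in the h+ wild type and 0.386 ± 0.190 CPM (SD, n = 3) in the h- wild type. Its log2 fold change was -1.90 (SE 0.329, adjusted p = 0.0112) over the h+ wild type and 2.00 (adjusted p = 0.0287) over the h- wild type. The glucose dehydrogenase gene *gcd1* had 10.0, 11.3 and 15 CPM in *thc1*Δ against 31.2, 25.7 and 29.1 CPM in the h+ wild type (-1.25, SE 0.146, adjusted p = 0.00202), and was higher than in the h- wild type by 1.02 (adjusted p = 0.0031). These 2 genes belong to the set that glucose keeps low.

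The dehydrogenase gene SPCC1739.08c had 3.96, 7.83 and 7.47 CPM in *thc1*Δ against 34.9, 19.5 and 25.2 CPM in the h+ wild type (-2.05, adjusted p = 0.00415), with 1.13 (adjusted p = 0.0278) over the h- wild type. The amino acid permease gene *nrg1* had 6.68, 6.40 and 7.90 CPM in *thc1*Δ against 0.564, 1.79 and 3.68 CPM in the h+ wild type (1.79, SE 0.459, adjusted p = 0.041), and the h- wild type had 15.7 ± 0.364 CPM (SD, n = 3). The non-coding RNA SPNCRNA.1340 had 3.82, 3.72 and 3.20 CPM in *thc1*Δ against 0.677, 1.96 and 1.73 CPM in the h+ wild type (1.27, adjusted p = 0.0325). Groups were separate for all of these, but the call of *nrg1* was lost without *thc1*Δ replicate 2 (1.85, adjusted p = 0.0878) or 3 (1.69, adjusted p = 0.12) or h+ replicate 2 (1.70, adjusted p = 0.113). That of SPNCRNA.1340 was lost without *thc1*Δ replicate 2 (adjusted p = 0.0869) or 3 (0.0802), or without h+ replicate 1 (0.94, below the fold limit) or 3 (adjusted p = 0.0598).

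**Figure D3:**
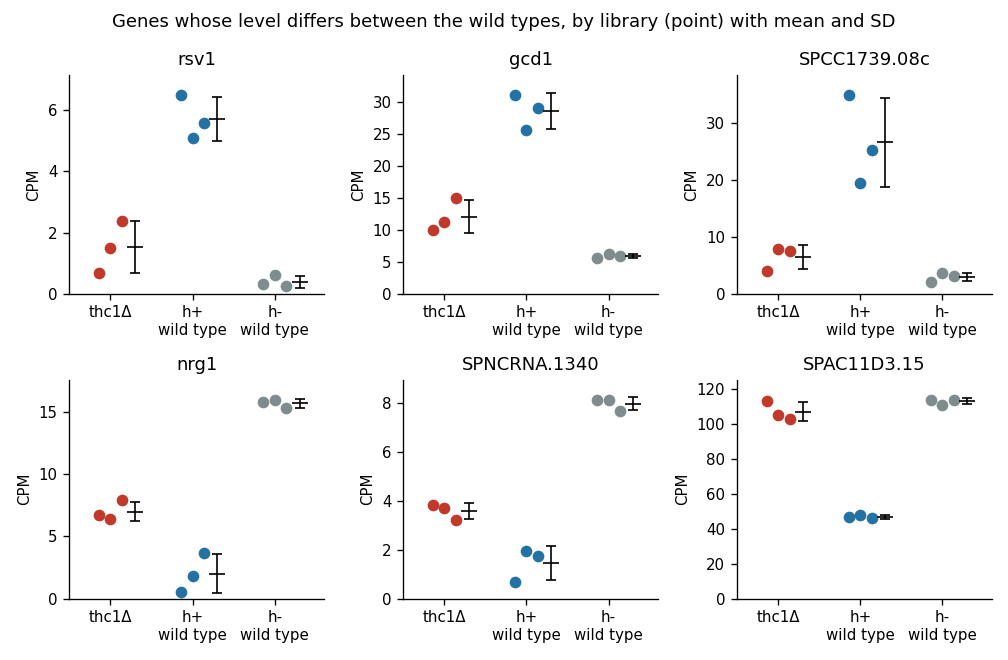
CPM of each library (points) with mean and SD in *thc1*Δ, the h+ wild type and the h- wild type (n = 3 each), for the 5 genes called in opposite directions against the 2 wild types and for SPAC11D3.15. The *thc1*Δ cultures lie between the wild types for the 5 genes, and for SPAC11D3.15 they lie near the h- parent, from 103 to 113 CPM.

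Of 8 hexose transporter genes 4 were lower in *thc1*Δ than in the h+ wild type by the adjusted p. So were 7 of 13 glucose-repressed genes and their regulators, beside 8.26% of all genes tested. Among the transporter genes 1 was also called lower at the fold limit, beside 0.994% of all genes tested, and none was higher. The list had a median log2 fold change of -0.45 beside -0.007 for all genes. The glucose:proton symporter gene *ght1* had 13.6, 14.8 and 18.5 CPM in *thc1*Δ against 51.1, 35.3 and 43.1 CPM in the h+ wild type (-1.47, SE 0.154, adjusted p = 0.00127). The major high-affinity transporter gene *ght5* had 317, 266 and 310 CPM in *thc1*Δ against 444, 367 and 407 CPM in the h+ wild type (-0.45, adjusted p = 0.0182). For both genes the groups were separate. The genes *ght8* (-0.67, adjusted p = 0.000541) and *ght4* (-0.69, adjusted p = 0.00366) were also lower.

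Of the 13 glucose-repressed genes and their regulators, 4 were called lower at the fold limit, beside 0.994% of all genes tested. None was higher, and the median was -0.45. The count of 7 lower by the adjusted p went to 4 without *thc1*Δ replicate 2, to 5 without h+ replicate 1 and to 5 with the replicate number as a block. Besides *rsv1* and *gcd1*, the invertase gene *inv1* had 5.84, 6.91 and 8.87 CPM in *thc1*Δ against 14.9, 14.1 and 25.2 CPM in the h+ wild type (-1.33, SE 0.245, adjusted p = 0.0138). The glycerol dehydrogenase gene *gld1* had 22.1, 40.9 and 50.5 CPM in *thc1*Δ against 89.0, 72.7 and 101 CPM in the h+ wild type (-1.22, SE 0.258, adjusted p = 0.0222), with *thc1*Δ replicate 1 the lowest. The genes *fbp1*, of gluconeogenesis (-0.81, adjusted p = 0.00816), *rsv2* (-0.93, adjusted p = 0.0112) and *mal1* (-0.19, adjusted p = 0.0334) passed the adjusted p alone. The *inv1* call was lost without *thc1*Δ replicate 2 (adjusted p = 0.0522). The *gld1* call was lost without *thc1*Δ replicate 1 (-0.94) or 2 (adjusted p = 0.0623) or h+ replicate 1 (0.0611) or 3 (0.0641).

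Against the h- parent the medians of both lists were above 0. They were 0.56 for hexose transporters and 0.47 for the list of glucose-repressed genes and their regulators. By the adjusted p, 3 hexose transporter genes were higher and 1 lower, and 5 genes of the second list were higher and none lower. Of all genes 10.0% passed as higher and 11.1% as lower. The 5 include the regulator gene *scr1* (1.12, adjusted p = 6.51e-05) and *gsf2* (0.59, adjusted p = 0.0425), which the flocculin list also holds. The transporter gene *ght1* stood at 0.92 and *ght5* at 1.74 over the h- wild type, which had 8.22 CPM of *ght1* and 88.9 CPM of *ght5* on average. The median over the h+ wild type was negative for both lists under every scaling and with any 1 library left out, between -0.24 and -0.60 for glucose-repressed genes without 1 library.

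**Figure D4:**
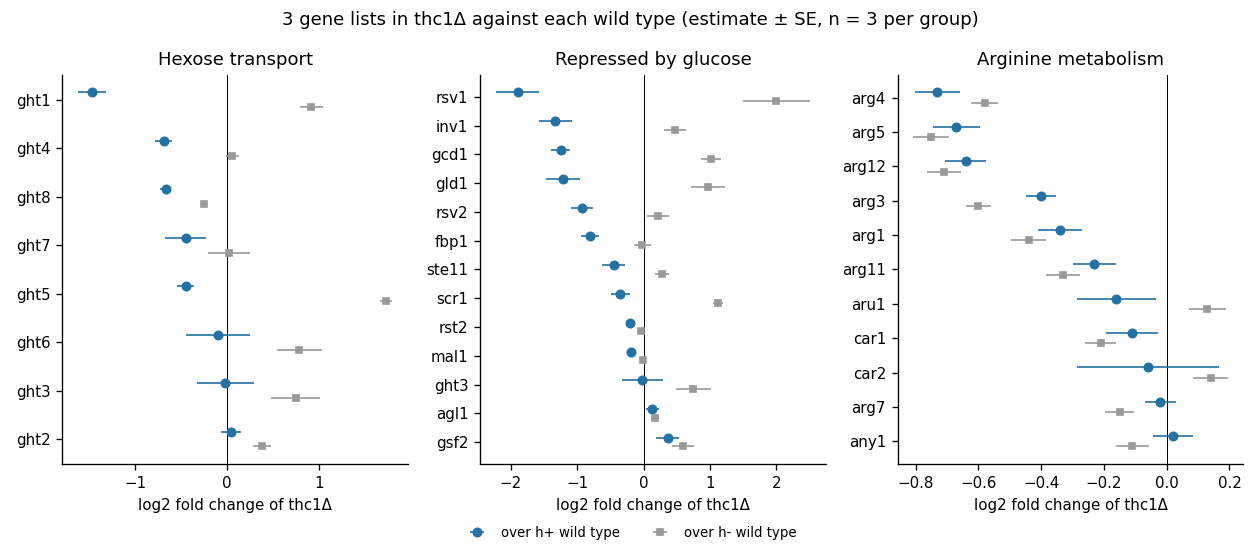
Log2 fold change of *thc1*Δ (estimate ± SE, n = 3 per group) over the h+ wild type (circles) and over the h- wild type (squares) for each tested gene of 3 lists. Hexose transporter and glucose-repressed genes lie mostly below 0 over the h+ wild type and above 0 over the h- wild type, whereas the arginine genes *arg1*, *arg3*, *arg4*, *arg5* and *arg12* lie below 0 over both.

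Of 11 genes of arginine metabolism 5 were lower against the h+ wild type and 7 against the h- wild type by the adjusted p. Of all genes tested 8.26% and 11.1% were lower. None of the 11 was higher, and none was called at the fold limit over the h+ wild type. The median over the h+ wild type was -0.23, and the synthesis genes *arg7* (-0.02, adjusted p = 0.788) and *arg11* (-0.23, adjusted p = 0.0573) did not pass. The argininosuccinate synthetase gene *arg12* had 364, 403 and 355 CPM in *thc1*Δ against 595, 555 and 596 CPM in the h+ wild type (-0.64, SE 0.0659, adjusted p = 0.00116). The carbamoyl phosphate synthase genes *arg4* (-0.73, adjusted p = 0.00102) and *arg5* (-0.67, adjusted p = 0.00173) were lower too. So were *arg3*, of ornithine carbamoyltransferase (-0.40, adjusted p = 0.00258), and *arg1* (-0.34, adjusted p = 0.0183). The wild types differed little in *arg12* (-0.07, adjusted p = 0.216), and against the h- parent *thc1*Δ stood at -0.71. The median of the list was -0.33 there, and the count of genes lower by the adjusted p over the h+ wild type lay between 4 and 6 with 1 library left out.

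The 20 calls shared with the h- comparison include *thc1*, TER1, *his3*, *mfm3*, SPNCRNA.863, SPNCRNA.1255, SPNCRNA.1344, SPBCPT2R1.07c and *pfl8*, given above, and 15 of the 20 held with any 1 library left out. Of the others, which were named after their values were seen, the methyltransferase gene SPCC70.08c had 11.3, 12.1 and 11 CPM in *thc1*Δ against 38.7, 34.5 and 34.8 CPM in the h+ wild type (-1.66, SE 0.0722, adjusted p = 1.52e-05). The non-coding RNA SPNCRNA.1626 had 61.9, 69.2 and 67.6 CPM in *thc1*Δ against 190, 208 and 190 CPM in the h+ wild type (-1.57, SE 0.0608, adjusted p = 1.52e-05). Neither group overlapped the other. Over the h- wild type these 2 genes stood at -1.40 and -1.21, and *aes1*, annotated as a phenazine biosynthesis family protein, at -1.05 beside -1.72 over the h+ wild type. The pumilio family RNA-binding protein gene *puf5* was higher in *thc1*Δ, with 86.6, 89.9 and 108 CPM against 30.1, 48.0 and 50.4 CPM in the h+ wild type (1.14, SE 0.177, adjusted p = 0.00683). It stood at 1.29 over the h- wild type. Without h+ replicate 1 *puf5* was at 0.93, below the fold limit.

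Of the 90 called genes, 42 (46.7%) had another called gene within 10 kb, as did 632 (10.2%) of the 6177 tested genes with a position, a description with no test, since overlapping genes can share reads. There were 5 runs of 3 or more called genes with gaps of at most 5 kb (coordinates of ASM294v3). The run at chrI:1951105-1956332 holds SPNCRNA.777, SPNCRNA.778, SPNCRNA.779, SPNCRNA.780 and SPNCRNA.781, non-coding RNAs on both strands, and all 5 tested genes inside were called higher. The RNA SPNCRNA.780 had 11.9, 8.70 and 9.38 CPM in *thc1*Δ against 0.761, 2.83 and 1.84 CPM in the h+ wild type (2.44, SE 0.348, adjusted p = 0.00497), and SPNCRNA.779, which overlaps it by 427 nt on the other strand, had 13.1, 10.1 and 10.7 CPM against 0.930, 4.25 and 3.73 CPM (1.91, adjusted p = 0.0219). Their neighbours SPNCRNA.781, SPNCRNA.778 and SPNCRNA.777 stood at 1.69, 1.54 and 1.40. In every case h+ replicate 1 was the lowest library. The calls of SPNCRNA.779 and SPNCRNA.781 were lost without *thc1*Δ replicate 2 (adjusted p = 0.0549 and 0.0625) or 3 (0.0672 and 0.0855). None of the 5 passed against the h- wild type, where they lay between -0.22 and 0.38.

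In the run at chrI:136245-149005, 4 genes were called higher and 2 lower, with calls in both directions on the minus strand. The 5-oxoprolinase gene SPAC11D3.15 was higher (1.18), while SPNCRNA.610, which overlaps it by 1082 nt on the other strand, had 3.27, 3.19 and 2.82 CPM in *thc1*Δ against 12.2, 10.2 and 11.2 CPM in the h+ wild type (-1.86, SE 0.113, adjusted p = 0.00012). Further along, SPNCRNA.611 had 7.14, 8.56 and 6.85 CPM in *thc1*Δ against 1.92, 2.21 and 2.73 CPM in the h+ wild type (1.71, SE 0.157, adjusted p = 0.00072), and the transporter gene SPAC11D3.18c, which it overlaps by 1571 nt, stood at -1.01 (adjusted p = 0.000624). The non-coding RNAs SPNCRNA.613 (1.79, adjusted p = 0.00131) and SPNCRNA.612 (1.04, adjusted p = 0.00381), were higher. No library of one group lay among those of the other for these 6 genes. The call of SPAC11D3.18c fell below the fold limit without *thc1*Δ replicate 3 (-0.94) or h+ replicate 1 (-0.96), and that of SPNCRNA.612 without h+ replicate 1 (0.92). None of the 6 genes was called against the h- wild type.

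In the run at chrI:2931772-2940765, 4 of 5 tested genes were called lower. They were *cbm1*, SPNCRNA.863, SPNCRNA.861 (-1.84, adjusted p = 0.0176) and the copper amine oxidase gene *cao1*, while SPNCRNA.862 stood at -0.64 (SE 0.311, adjusted p = 0.193). The *cao1* gene had 121, 130 and 112 CPM in *thc1*Δ against 434, 290 and 140 CPM in the h+ wild type (-1.26, SE 0.333, adjusted p = 0.0444). As for its neighbours, h+ replicate 1 was highest and replicate 3 lowest, and replicate 3 lay close to *thc1*Δ. The *cao1* call was lost without any *thc1*Δ library (adjusted p = 0.0555 to 0.132) or without h+ replicate 1 (-0.84, adjusted p = 0.105) or 2 (0.0994), and that of SPNCRNA.861 without *thc1*Δ replicate 2 (0.0627) or 3 (0.0713). At chrII:355997-359856 the RNA SPNCRNA.1344 and the genes SPBC1271.08c (-1.37) and SPBC1271.07c (-1.79), an N-acetyltransferase gene, were lower, the first and the last also against the h- parent. At chrIII:232288-241768 *ght1*, SPNCRNA.1121 (-1.38), which overlaps it, and *gcd1* were lower.

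**Figure D5:**
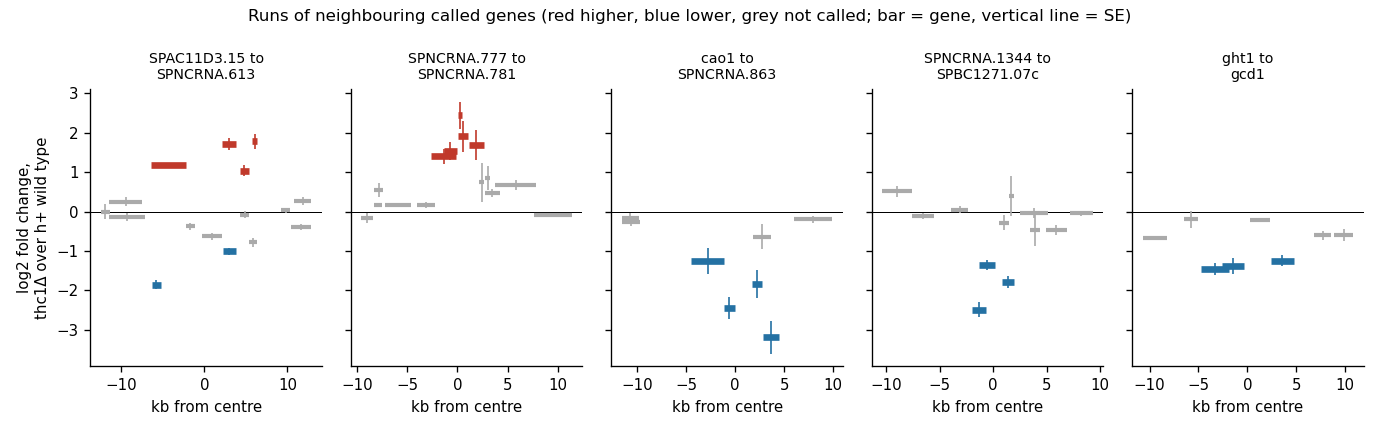
Log2 fold change of *thc1*Δ over the h+ wild type (vertical lines show the SE) for tested genes in and beside the 5 runs of called genes, drawn at gene length in kb from the centre of each run. The run of SPNCRNA.777 to SPNCRNA.781 is higher throughout, from 1.40 to 2.44, that of SPAC11D3.15 to SPNCRNA.613 is mixed, and the called genes of the other 3 are all lower.

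Ribosomal protein genes were slightly higher as a list. Of 141 genes of cytosolic ribosomal proteins none was called at the fold limit, 140 had a fold change above 0, and the median was 0.22, which stayed between 0.21 and 0.23 under other scalings and between 0.16 and 0.27 with 1 library left out. They took 12.8% to 13.5% of counts in *thc1*Δ libraries against 10.6% to 11.9% in the h+ wild type. By the adjusted p alone 32 were higher, beside 5.28% of all genes tested. The number of 32 went to 0 without *thc1*Δ replicate 3, to 3 without replicate 2 and to 10 without replicate 1. It went to 7, 4 and 20 without h+ replicates 1, 2 and 3, and to 124 with DESeq2. In the h- wild type their share of counts was 12.9% to 13.0%, and the median over the h- wild type was 0.04.

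Of 10 copper genes 1 was higher and 2 lower by the adjusted p, with *cao1* called lower at the fold limit and a median of -0.05. Of all genes tested 5.28% were higher and 8.26% lower by the adjusted p. The copper transporter subunit gene *ctr5* had 489, 515 and 453 CPM in *thc1*Δ against 339, 367 and 373 CPM in the h+ wild type (0.43, adjusted p = 0.00724), and the ferric reductase gene *frp1* had 9.71, 8.08 and 8.06 CPM against 16.1, 14.6 and 14.7 CPM (-0.82, adjusted p = 0.0025). The partner transporter gene *ctr4* stood at 0.16 (adjusted p = 0.245). Over the h- wild type *ctr4* and *ctr5* were called higher (2.21 and 1.62), and *sod1* and *fio1* were called lower (-1.41 and -1.04). There *frp1* stood at 0.72 (adjusted p = 0.00671), and 4 copper genes were higher and 3 lower by the adjusted p. Of 14 iron genes, with a median of -0.20, none was higher and 3 were lower by the adjusted p, beside 8.26% of all genes tested. The 3 were *shu1*, which was called, *frp1*, which both lists hold, and *sib1*, of siderophore synthesis (-0.29, adjusted p = 0.036). Over the h- wild type *sib1* stood at 0.19 (adjusted p = 0.0105), and 4 iron genes were higher and 4 lower by the adjusted p.

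Of 13 Tf2 retrotransposon rows 4 could be tested, of which 3 were lower by the adjusted p, beside 8.26% of all genes tested. Of these 3, 1 was called, and the 4 had a median of -0.90 and no fold change above 0. Tf2-11 had 5.78, 6.15 and 6.85 CPM in *thc1*Δ against 26.7, 21.3 and 18.9 CPM in the h+ wild type (-1.84, SE 0.138, adjusted p = 0.000377), with no overlap between the groups. The other 3 were Tf2-10 (-0.92, adjusted p = 0.0181), Tf2-13 (-0.87, adjusted p = 0.0267) and Tf2-2 (-0.46, adjusted p = 0.249), and reads of these near-identical copies may be placed on any of them. Within 50 kb of the annotated ends, 16 of 45 rows on chromosome I were tested, with 2 called higher and 2 lower, and 9 of 34 on chromosome II, with 2 higher and 2 lower. Of all genes tested 0.449% were called higher and 0.994% lower. The non-coding RNA SPNCRNA.287 had 1.91, 1.90 and 2.20 CPM in *thc1*Δ against 0.479, 0.696 and 1.03 CPM in the h+ wild type (1.44, adjusted p = 0.0102), and SPNCRNA.601 had 1.79, 2.29 and 2.26 CPM against 0.508, 0.994 and 0.784 CPM (1.45, adjusted p = 0.00831). The isomerase gene SPAC186.06 stood at -1.25 (adjusted p = 0.0051). These 3 were called in the same direction against the h- parent.

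Of the other subtelomeric calls, *ftm2* rests on 34 counts in *thc1*Δ against 12 in the h+ wild type (1.53, adjusted p = 0.036) and was lost without any 1 library (adjusted p = 0.0554 to 0.105). The pseudogene SPAC212.07c had 17 counts against 60 (-1.74) and was lost without *thc1*Δ replicate 2 or 3 or h+ replicate 2 or 3 (adjusted p = 0.0682 to 0.108). The gene SPBPB2B2.18 had 65 counts against 21 (1.67) and was lost without *thc1*Δ replicate 3 or h+ replicate 1 or 2 (adjusted p = 0.0825 to 0.0917). The urea transporter gene SPBPB8B6.02c (-1.33) was lost without *thc1*Δ replicate 2 or h+ replicate 1 or 3 (adjusted p = 0.0712 to 0.0896).

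Most of the following groups had no member called against the h+ wild type. Of all genes tested 5.28% were higher and 8.26% lower by the adjusted p. Among 22 genes of stress defence and chaperones, only *obr1* passed the adjusted p (0.46, adjusted p = 0.0122), and the median was 0.09. Of 15 genes of glycolysis and fermentation 3 were higher and 1 lower by the adjusted p alone, the last the pyruvate decarboxylase gene *pdc201* (-0.88, adjusted p = 0.0181), which was also lower against the h- parent (-0.97). Of 9 core histone genes none passed, and of 10 meiotic transcripts that the Mmi1 system removes none was called, 1 was higher and 3 lower by the adjusted p alone. Of 7 phosphate genes only the non-coding RNA *prt2* passed (0.55, adjusted p = 0.0414). The gene *pho1* stood at -0.18 (adjusted p = 0.435), and over the h- wild type it was called lower (-1.53, adjusted p = 1.93e-06). The other marker genes, *ade6* (-0.13, adjusted p = 0.271) and *leu1* (-0.08, adjusted p = 0.372), were not called, and *ura4* was below the filter. Of 8 flocculin genes tested, *pfl8* was called and *pfl2* (-0.79, adjusted p = 0.0051) and *pfl5* (-0.46, adjusted p = 0.0338) were lower by the adjusted p alone.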

How the data were processed

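Ribosomal RNA was removed from total RNA by the authors, who made stranded libraries for single-end sequencing. Trimmed reads were aligned by STAR 2.5.2b to ASM294v2. The deposited values are raw counts of reads per gene, whole numbers that were not normalized. The counter, its annotation, the placing of reads with several matches and the use of strand are details not given in the sources used here. Effects of depletion, of library amplification and of read alignment cannot be removed from the counts afterwards. Names, biotypes and coordinates come from RefSeq ASM294v3, in which 6846 genes matched by locus tag and 15 by synonym. 143 were not found. No coordinate was carried between builds, and sequences are those of ASM294v3. Protein sequences were not used here.

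Counts of the 6 libraries of a comparison were fitted with edgeR 4.0.16 (TMM, filterByExpr at a minimum count of 10, glmQLFit and glmQLFTest) in R 4.3.3, with Benjamini-Hochberg adjustment over all genes tested. The SE is the log2 fold change over the square root of F. The fit was tested on simulated data with known changes. The alternatives were DESeq2 1.42.0, limma-voom (limma 3.58.1), RLE size factors, library totals alone, no filter, a mean count of at least 50, all 12 libraries in 1 fit, the replicate number as a block, no limit on the fold change, exclusion of mitochondrial and ribosomal RNA genes, and each library left out in turn. Intervals for counts cover counting error only.

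The strains, gene lists and tests were chosen with earlier results of these data known. Named were the tested genes of the telomerase, M-cell, P-cell and marker lists, the 8 largest rises and 8 largest falls with separate groups, the 6 and 6 largest among calls not shared with the h- comparison at 5 CPM or more, genes called in opposite directions, and up to 4 called members of every other list. Other genes were named after their values were seen.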

Additional observations from a re-analysis of the deposited data

Results flagged for a closer look

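The 5 genes called in opposite directions against the 2 wild types were singled out because the fold change of the same *thc1*Δ libraries changed sign between the controls. Since they were chosen by these calls, a difference between the wild types follows from the choice, and its size is given with no test. The log2 fold change of the h+ over the h- wild type was 3.89 for *rsv1*, 3.18 for SPCC1739.08c and 2.27 for *gcd1*. It was -2.95 for *nrg1* and -2.43 for SPNCRNA.1340.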

How the results depend on the processing

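Leaving out 1 library gave between 18 and 37 genes called higher, against 28, and between 49 and 61 called lower, against 62. For calls not shared with the h- comparison the ranges were 12 to 22 higher, against 20, and 36 to 48 lower, against 50. The lowest counts of higher genes, 18, came without *thc1*Δ replicate 3 and without h+ replicate 1. With no limit on the fold change 329 genes were higher and 515 lower. The fold changes of TER1 and *thc1* kept their direction and call under every alternative run. Among the called genes named or counted, 1119 of 1304 values under alternatives kept their call, 185 were lost and none turned direction. Genes that were not called and lay near 0 did turn. With 1 library left out the fold changes ran from -0.17 to 0.01 for *mam2*, -0.02 to 0.07 for *tgs1*, -0.42 to 0.25 for *mfm1*, -0.07 to 0.08 for *bmc1*, -0.03 to 0.04 for *est1*, -0.03 to 0.07 for *lsm4* and -0.29 to 0.07 for *map2*, and with library totals alone *bmc1*, *est1* and *lsm4* stood at -0.01 each.

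Same-numbered cultures of *thc1*Δ and the h+ wild type did not deviate together (correlations of -0.0884, -0.159 and 0.0628 over genes), so the numbers do not pair the samples. With the replicate block 20 genes were higher and 51 lower, 68 of the 90 calls were kept, and only the cultures numbered 3 correlated best with their own number. Counts of ribosomal protein genes higher by the adjusted p ranged from 0 to 124, at 1 with the replicate block, 119 with all 12 libraries in 1 fit and 124 with DESeq2, against 32 by edgeR over the 6 libraries.

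At these totals, genes with few counts, such as *shu1*, *ftm2* and SPAC212.07c, have wide counting intervals, and most rows of chromosome ends and of Tf2 copies could not be tested.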

Other observations

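Small structured RNAs and transcripts of mitochondrial DNA had no called member. Of 42 tested snoRNAs 1 was higher by the adjusted p alone in *thc1*Δ, with a median log2 fold change of 0.17 that lay between 0.11 and 0.23 with 1 library left out. The count of 1 went to 3 without h+ replicate 2 and to 0 without *thc1*Δ replicate 1 or 3 or h+ replicate 1 or 3. Of 6 tested snRNAs none passed, and the median was 0.15, while 1 was higher without *thc1*Δ replicate 2 or h+ replicate 2, and 2 were higher with all 12 libraries in 1 edgeR fit and by DESeq2. Of 33 tested mitochondrial genes 3 were lower by the adjusted p, beside 8.26% of all genes tested. Their median was -0.19, between -0.10 and -0.21 with 1 library left out. The count of 3 went to 0 without *thc1*Δ replicate 2 or 3 or h+ replicate 2 and with the replicate block, and to 1 without h+ replicate 1 or 3. They took 4.20% to 4.91% of counts in *thc1*Δ libraries against 4.43% to 4.76% in the h+ wild type.

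The called genes given next lie outside the lists and were named after their values were seen. The gene *gnr1*, of a G protein beta subunit, had 6.13, 6.65 and 5.62 CPM in *thc1*Δ against 20.9, 13.5 and 13.0 CPM in the h+ wild type (-1.37, SE 0.187, adjusted p = 0.00419), with no overlap. The gene *rbd2*, of a Golgi rhomboid protease, had 16.9, 17.9 and 18.1 CPM in *thc1*Δ against 44.9, 37.9 and 33.8 CPM in the h+ wild type (-1.15, SE 0.102, adjusted p = 0.000687). The glycoprotein gene SPBPJ4664.02 had 106, 147 and 131 CPM in *thc1*Δ against 410, 343 and 313 CPM in the h+ wild type (-1.48, SE 0.136, adjusted p = 0.000702). None of these 3 was called against the h- parent, where they stood at -0.11, -0.38 and -0.26. The *aca1* gene, whose product acetylates a toxic proline analogue, was close to the fold limit against both, at -1.01 over the h+ and -0.96 over the h- wild type, and was below the limit without *thc1*Δ replicate 1 (-0.98) or h+ replicate 1 (-0.96).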
